A study of Mus musculus with 21 samples.

Results

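Heat shock and ER chaperones were followed as 10 genes among the 34369 genes of the joined RNA-seq tables, read in mouse cells with and without the RNA-binding protein RBM10. The cytosolic genes are Hspa1a, Hspa1b, Hspa8, Hsph1 and Dnajb1, and the endoplasmic reticulum (ER) genes are Hspa5, Hsp90b1, Calr, Pdia4 and Herpud1. They were selected on their TPM in knockout (KO) against wild-type (WT) libraries of each cell type, so those differences are given as a description with no test. The crosslinking of RBM10 to RNA is a readout that the choice did not use, and it is tested for these genes. The comparison of deletion clones with each other reads the md TPM values that chose the members. It is a description for them.

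RBM10 binds RNA and regulates splicing, and its gene lies on the X chromosome. RNA-seq of polyadenylated RNA covered 3 libraries of the ES cell line CSI176, a hemizygous Rbm10 gene trap line that is a single line, and 3 of its parental line E14Tg2a.4. Both ES lines grew on gelatin in medium with LIF. It also covered 4 CRISPR KO clones of md MEPA cells and 3 libraries of WT md MEPA cells, a mandibular pharyngeal arch line made from embryos of CD1 females and an Immortomouse male. The deletion is in exon 9 in clones KO3 and KO4, against exon 3 in clones KO1 and KO2. All md cells, KO and WT, grew at 33 °C with 100 U/ml murine interferon. No culture temperature is given in the labels for the ES cells. In WT md cells, 4 iCLIP libraries made with an anti-RBM10 antibody and 4 made with rabbit IgG record crosslinked nucleotides after irradiation with 400 mJ/cm2 of UV light. Whether WT md libraries, or libraries of an ES line, came from separate cultures is not stated, so p-values measure a spread between samples that may be technical.

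Chaperones of the HSP70 class bind unfolded stretches of protein in cycles of ATP binding and hydrolysis, which J-domain proteins start and nucleotide exchange factors reset. In the cytosol, unfolded protein frees the factor HSF1, which binds heat shock elements and raises the inducible members. In the ER, unfolded protein engages the sensors IRE1, PERK and ATF6, and the factors they release act on ER stress elements in the genes of ER chaperones.

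Promoters of the members carry these elements in different combinations, and 6 are shown whose genes hold a large ES difference or a stress element. Hspa1a also qualifies, but its promoter, nearly identical to that of Hspa1b, is not printed. The sequences are the 250 bases before the transcription start in RefSeq (GRCm38.p6), where 9 of the 10 members had an entry (all but Hspa8). Capitals mark matches to any of 5 motifs, searched on both strands. The motifs are a pair of inverted heat shock units, GAANNTTC and TTCNNGAA, the ER stress element (ERSE) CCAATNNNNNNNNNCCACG, its second form (ERSE-II) ATTGGNCCACG, and the CEBP-ATF element TGATGNAA. By the letters of these motifs, every ERSE match holds a CCAAT box, and every ERSE-II match holds one in reverse.
Hspa5, chr2:34771840-34772089, plus strand: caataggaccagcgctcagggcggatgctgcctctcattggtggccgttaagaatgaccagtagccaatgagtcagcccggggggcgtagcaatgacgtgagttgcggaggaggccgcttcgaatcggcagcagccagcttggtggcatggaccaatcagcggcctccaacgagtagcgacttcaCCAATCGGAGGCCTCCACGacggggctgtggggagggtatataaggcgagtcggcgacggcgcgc
Hsp90b1, chr10:86705445-86705694, minus strand: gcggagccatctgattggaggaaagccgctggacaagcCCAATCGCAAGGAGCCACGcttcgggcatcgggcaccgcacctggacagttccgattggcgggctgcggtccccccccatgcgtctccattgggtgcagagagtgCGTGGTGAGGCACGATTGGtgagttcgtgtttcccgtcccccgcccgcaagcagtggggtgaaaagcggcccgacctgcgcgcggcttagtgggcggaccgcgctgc
Calr, chr8:84846932-84847181, minus strand: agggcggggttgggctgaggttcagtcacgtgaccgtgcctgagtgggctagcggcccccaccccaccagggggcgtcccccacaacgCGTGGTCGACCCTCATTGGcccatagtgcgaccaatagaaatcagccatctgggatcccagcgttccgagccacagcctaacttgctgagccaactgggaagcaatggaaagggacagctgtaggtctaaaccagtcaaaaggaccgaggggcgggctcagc
Herpud1, chr8:94386179-94386428, plus strand: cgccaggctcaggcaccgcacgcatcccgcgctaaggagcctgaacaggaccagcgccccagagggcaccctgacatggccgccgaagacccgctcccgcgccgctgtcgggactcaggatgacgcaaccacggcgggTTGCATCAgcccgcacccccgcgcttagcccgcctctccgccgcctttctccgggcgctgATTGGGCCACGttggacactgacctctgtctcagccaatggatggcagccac
Hspa1b, chr17:34959239-34959488, minus strand: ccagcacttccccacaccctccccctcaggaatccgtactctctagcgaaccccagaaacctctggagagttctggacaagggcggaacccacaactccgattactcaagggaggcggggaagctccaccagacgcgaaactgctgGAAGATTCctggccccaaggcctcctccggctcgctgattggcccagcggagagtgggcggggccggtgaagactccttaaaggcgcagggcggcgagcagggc
Hsph1, chr5:149636316-149636565, minus strand: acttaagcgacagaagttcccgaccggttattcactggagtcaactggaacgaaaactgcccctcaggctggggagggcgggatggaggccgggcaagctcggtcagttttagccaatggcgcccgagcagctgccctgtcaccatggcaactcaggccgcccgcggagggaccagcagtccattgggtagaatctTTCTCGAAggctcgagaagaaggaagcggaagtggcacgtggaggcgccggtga

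An ERSE was present in Hspa5 from 65 to 47 bases before the start, in Calr from 162 to 144, and 2 times in Hsp90b1, from 212 to 194 and from 107 to 89. Over all 32851 RefSeq promoters of this length 0.113% held an ERSE. Herpud1 was the single member with an ERSE-II, which 0.0304% of promoters hold, and the single member with a CEBP-ATF element, which 3.45% hold. Hspa1a and Hspa1b each had the GAANNTTC pair, from 104 to 97 bases before the start, as 6.69% of promoters do. Hsph1 had the TTCNNGAA pair, which 7.17% hold. The windows of Pdia4 and Dnajb1 held none of the 5 motifs. A match is a description of these letters, not evidence of a bound site. The promoters of Hspa1a and Hspa1b differ at 3 of the 250 bases before the start.

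The libraries were checked first with Rbm10 itself (ENSMUSG00000031060.9, chrX:20194629-20228027 in mm9). It had 4.27, 3.63 and 4.25 TPM in ES KO libraries, against 32.5, 33.5 and 32.2 TPM in ES WT libraries. In md clones KO1 to KO4 it had 23.2, 19.7, 7.20 and 3.49 TPM, against 21.4 to 23.7 TPM in md WT libraries. A deletion within an exon need not lower a transcript, so an unlowered level in KO1 and KO2 neither fits nor contradicts their labels. All 6 ES cell markers were above 1 TPM in every ES library, with sums of 3946 to 4365 TPM in ES KO and 4105 to 4992 TPM in ES WT. Of 6 arch mesenchyme markers, 3 or 4 reached 1 TPM in each md library, with sums of 139 to 244 TPM in md KO and 130 to 139 TPM in md WT. Hand2 and Dlx5 are among those that did not.

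In ES cells, 7 of the 10 chaperone genes were higher in every KO library than in every WT library. Herpud1 was lower in every KO library. Hspa8 and Dnajb1 overlapped between the groups. Among all 12860 genes tested, 23.8% lay wholly above and 14.5% wholly below. The limma fit (Benjamini-Hochberg adjusted p under 0.05) called 12.3% of those genes, 7.53% higher and 4.73% lower in KO, and 8 of the 10 members were among the called. Since these differences chose the members, nothing is read from either count. The count of members rests on single libraries, since it was 0 without KO library 2 or KO library 3 and 1 without WT library 1 or WT library 2. Of the called genes 61.4% were higher in KO, or 42.5% with median ratio scaling and 46.2% with quantile normalisation. The log2 differences below are on the log2(TPM + 1) scale, with the standard error of that fit.

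The inducible HSP70 genes had the largest ES differences of the cytosolic members. Hspa1a (ENSMUSG00000091971.1, chr17:35106144-35109069, minus strand, mm9) had 5.38, 4.38 and 5.98 TPM in ES KO libraries, against 0.480, 0.486 and 0.982 TPM in ES WT libraries. Its log2 difference was 1.93 ± 0.16 (SE), and it passed the filter on low values through the KO libraries alone. Hspa1b (ENSMUSG00000090877.2, chr17:35093381-35096183, minus strand) encodes nearly the same protein. It had 11.5, 15.8 and 22.7 TPM in ES KO libraries, against 3.01, 3.47 and 5.56 TPM in ES WT libraries, a log2 difference of 1.80 ± 0.27. The coding sequences of the pair are 98.2% identical, so reads can be divided between them arbitrarily. Their sum does not depend on that division, and it was 16.9, 20.2 and 28.7 TPM in ES KO libraries, against 3.49, 3.96 and 6.54 TPM in ES WT libraries. The lowest KO sum was 2.59 times the highest WT sum. Hspa1a also overlaps an annotated antisense gene, as do Herpud1 and Hsp90b1, and whether the TPM used strand is not stated, so reads of these partners cannot be told apart.

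Hspa8 (ENSMUSG00000015656.10, chr9:40609067-40613283, plus strand), the constitutive HSC70 that also uncoats clathrin vesicles, was the most abundant member throughout. It had 4078, 8000 and 8236 TPM in ES KO libraries, against 3065, 3352 and 4293 TPM in ES WT libraries. KO library 1 lay below the highest WT library, so the groups overlapped. The log2 difference was 0.87 ± 0.29. Hsph1 (ENSMUSG00000029657.8, chr5:150416862-150438951, minus strand) encodes HSP110, a nucleotide exchange factor of the HSP70 proteins. Its levels were 68.3, 123 and 157 TPM in ES KO libraries, against 44.2, 46.9 and 42.2 TPM in ES WT libraries. All 3 KO libraries were above, by 1.29 ± 0.28 on the log2 scale. Dnajb1 (ENSMUSG00000005483.8, chr8:86132074-86135801, plus strand) encodes HSP40, the J-domain partner of inducible HSP70. It reached 18.8, 28.6 and 32.5 TPM in ES KO libraries, against 20.7, 21.4 and 19.6 TPM in ES WT libraries. KO library 1 was below every WT library, and the log2 difference of 0.32 ± 0.19 was the smallest of the 10 in size.

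Of the ER members, Hspa5 (ENSMUSG00000026864.7, chr2:34627490-34632051, plus strand) encodes BiP, the HSP70 of the ER that also holds the stress sensors inactive. It had 92.7, 225 and 239 TPM in ES KO libraries, against 48.0, 53.3 and 61.5 TPM in ES WT libraries. Its log2 difference of 1.65 ± 0.35 was the largest increase of an ER member, and KO libraries 2 and 3 stood well above KO library 1. Hsp90b1 (ENSMUSG00000020048.7, chr10:86152954-86168254, minus strand), the HSP90 of the ER known as GRP94, had 235, 335 and 369 TPM in ES KO libraries, against 134, 147 and 176 TPM in ES WT libraries. Calr (ENSMUSG00000003814.8, chr8:87365749-87370833, minus strand) encodes calreticulin, a lectin that retains glycoproteins until they fold and that binds calcium. It had 369, 488 and 567 TPM in ES KO libraries, against 227, 259 and 309 TPM in ES WT libraries. Pdia4 (ENSMUSG00000025823.8, chr6:47746141-47763511, minus strand) encodes the disulfide isomerase ERp72. It had 71.7, 88.8 and 95.1 TPM in ES KO libraries, against 46.6, 48.0 and 54.3 TPM in ES WT libraries. For Hsp90b1, Calr and Pdia4 every KO library was above every WT library, by 1.02 ± 0.19, 0.83 ± 0.18 and 0.76 ± 0.13 on the log2 scale.

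Herpud1 (ENSMUSG00000031770.9, chr8:96910338-96919277, plus strand) went the other way. It encodes a membrane protein that organises the ubiquitin ligase complex for ER-associated degradation. It had 12.1, 4.92 and 4.73 TPM in ES KO libraries, against 22.1, 25.9 and 23.3 TPM in ES WT libraries. Every KO library was below every WT library, by -1.70 ± 0.31 on the log2 scale. KO library 1 was the nearest to WT, as it was for 8 of the other 9 members. Only for Hspa1a was another KO library, library 2, the nearest. KO library 1 also stood apart over all genes tested. Its median absolute log2 difference from the rest of its group was 0.218, against 0.133 and 0.137 for KO libraries 2 and 3. The share of all genes for which it was nearest to WT was not counted, so nothing is read from its place among the members.

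The median log2 difference over the 5 cytosolic members in ES cells was 1.29, and over the 5 ER members it was 0.83, where the median of all genes tested was 0.03. Without KO library 2 or KO library 3 the cytosolic median was 0.96 or 0.86. The mean log2 level of the cytosolic members minus that of the ER members was -0.83, -0.58 and -0.39 in ES KO libraries, against -1.31, -1.37 and -1.31 in ES WT libraries. Most of that shift lies with Herpud1. With Herpud1 left out, the same difference was -1.54, -1.65 and -1.49 in ES KO libraries, against -1.71, -1.75 and -1.76 in ES WT libraries. Among markers of other cell types, the feeder fibroblast list summed to 2.51 to 3.74 TPM in ES KO and 3.59 to 5.86 TPM in ES WT, with Thy1 alone of its 4 genes above 1 TPM. Sums of the endothelial list were 9.60 to 19.6 TPM in ES KO and 20.6 to 27.0 TPM in ES WT, from Pecam1. Its other genes, Cdh5 and Kdr, were at 0 and at most 0.492 TPM in ES libraries. The leukocyte list summed to 8.81 to 11.6 TPM in ES KO and 15.2 to 16.9 TPM in ES WT, from Cd68. Its other genes, Ptprc and Tyrobp, were at 0 and at most 0.123 TPM in ES libraries. Of the ES cell markers, Nanog averaged 189 ± 35.1 TPM in ES KO and 331 ± 16.2 TPM in ES WT (SD, n = 3 each). Esrrb averaged 104 TPM in ES KO and 232 TPM in ES WT, and Sox2 179 and 240 TPM. Pou5f1 went the other way, with 634 to 683 TPM in ES KO and 553 to 571 TPM in ES WT. Zfp42 (means 217 and 321 TPM) and Dppa5a (2748 and 2990 TPM) overlapped between the groups. The part of these shifts in the chaperone values was not tested, and in bulk RNA fewer cells of a type and less RNA per cell cannot be told apart.

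**Figure D1:**
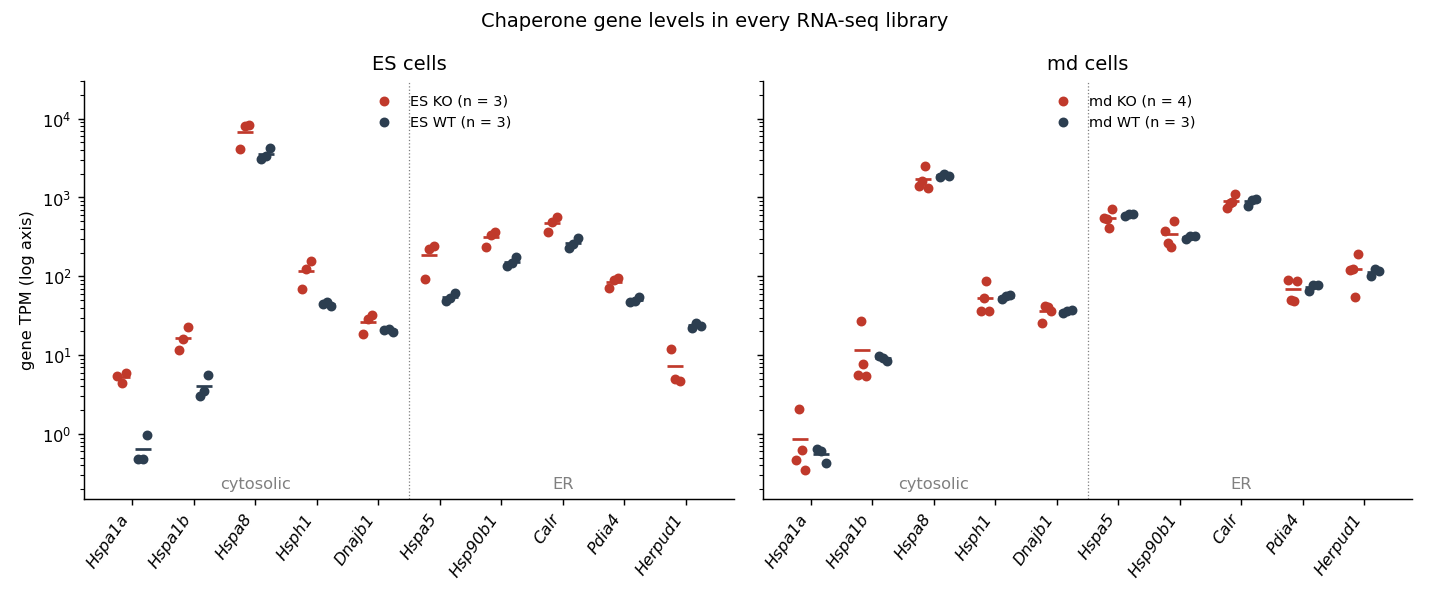
Gene TPM (log axis) of the 10 chaperone genes in each RNA-seq library, with ES cells on the left and md cells on the right. Points are libraries and short lines are group means. In ES cells 7 genes have all KO points above all WT points and Herpud1 has them below, while in md cells all 10 overlap.

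In md cells, the KO and WT libraries of all 10 members overlapped, and the limma fit called none of the 9 that passed the filter. Of the 12090 genes tested in md cells, 6.33% had every clone above every WT library and 4.38% every clone below, and the fit called 0.0165%. Their log2 differences ran from -0.20 ± 0.22 for Hspa8 to 0.06 ± 0.26 for Hsp90b1. The median was -0.01 over all 5 cytosolic members and -0.01 over the 5 ER members, beside 0.01 for all genes tested. Hspa1a stayed under the filter, with 0.467, 2.06, 0.621 and 0.351 TPM in KO1 to KO4, against 0.639, 0.613 and 0.427 TPM in md WT libraries.

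**Figure D2:**
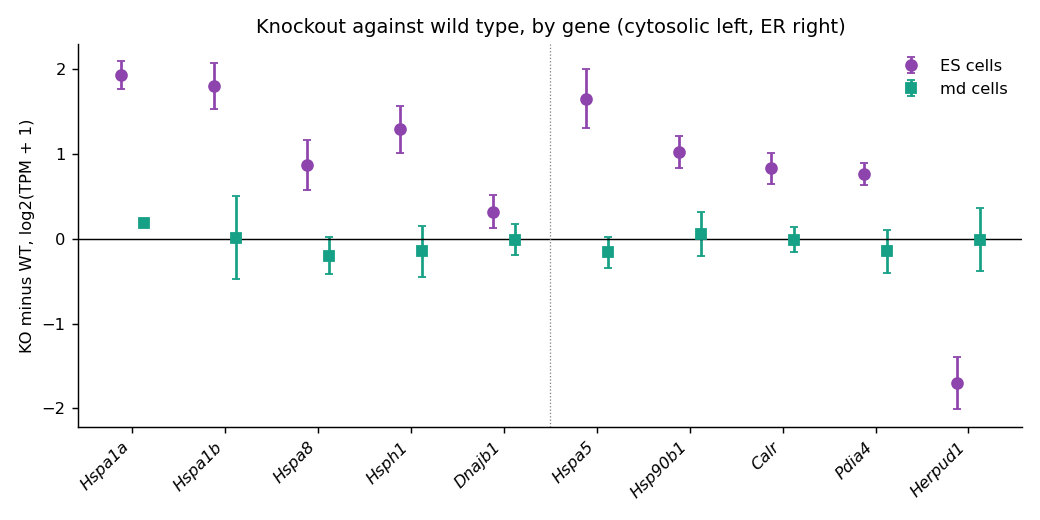
KO minus WT difference of each gene on the log2(TPM + 1) scale, in ES cells (circles) and md cells (squares). Bars are standard errors of the limma fit, and Hspa1a in md cells has none because it was not fitted. The ES values run from -1.70 for Herpud1 to 1.93 for Hspa1a, and the md values lie between -0.20 and 0.19.

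The md group means hide differences between clones. Hspa1b had 5.64, 27.0, 7.79 and 5.41 TPM in KO1 to KO4, against 9.73, 9.09 and 8.44 TPM in md WT libraries, so KO2 was high and the other clones were low. Hspa8 had 1378, 1626, 2539 and 1323 TPM in KO1 to KO4, against 1838, 1992 and 1876 TPM in md WT libraries, with KO3 alone above WT. Hsph1 was distributed like Hspa8, with 36.2, 53.2, 87.3 and 35.9 TPM in KO1 to KO4, against 51.8, 57.0 and 57.4 TPM in md WT libraries. For Dnajb1 the range was narrower, with 25.9, 42.3, 41.1 and 36.6 TPM in KO1 to KO4, against 34.6, 36.4 and 37.2 TPM in md WT libraries. KO1 was the lowest library of the 7 for Dnajb1.

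The ER members showed another clone order. Hspa5 had 551, 536, 405 and 715 TPM in KO1 to KO4, against 581, 617 and 619 TPM in md WT libraries. Hsp90b1 had 372, 266, 234 and 509 TPM in KO1 to KO4, against 296, 326 and 328 TPM in md WT libraries. Herpud1 had 121, 124, 54.1 and 190 TPM in KO1 to KO4, against 99.8, 122 and 118 TPM in md WT libraries. For these 3 genes KO4 was the highest of the 7 libraries and KO3 the lowest. Calr had 733, 856, 866 and 1106 TPM in KO1 to KO4, against 787, 933 and 958 TPM in md WT libraries, again with KO4 highest. Pdia4 had 89.1, 50.1, 49.1 and 86.9 TPM in KO1 to KO4, against 64.7, 78.4 and 78.1 TPM in md WT libraries, with KO1 and KO4 above WT and KO2 and KO3 below.

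Set against the WT mean, the class medians of a clone lay on opposite sides of it, though single members did not all follow. In KO1 and KO4 the median cytosolic member was at -0.46 and -0.52 on the log2 scale and the median ER member at 0.10 and 0.31. In KO2 and KO3 the median cytosolic member was at 0.22 and 0.18 and the median ER member at -0.18 and -0.57. In KO1, Hspa5 (-0.14) and Calr (-0.28) lay below WT with the cytosolic members. In KO2, Hspa8 (-0.22) and Hsph1 (-0.06) lay below WT, and Herpud1 (0.14) lay above it. Hspa1b (-0.20) lay below WT in KO3, and Dnajb1 (0.02) lay above it in KO4, so each clone held an exception. The clones of one deleted exon did not go together, since KO1 and KO2 share exon 3 and KO3 and KO4 share exon 9. Sums of the 4 fibroblast markers, nearly all of it the collagen genes Col1a1 and Col1a2, were 2304, 779, 554 and 1990 TPM in KO1 to KO4 and 1251 to 1529 TPM in md WT libraries. Cd68 was at 10.6, 7.41, 2.33 and 1.57 TPM in KO1 to KO4 and at 0.875 to 2.26 TPM in md WT libraries. The part of these other differences between clones in the chaperone values was not tested.

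**Figure D3:**
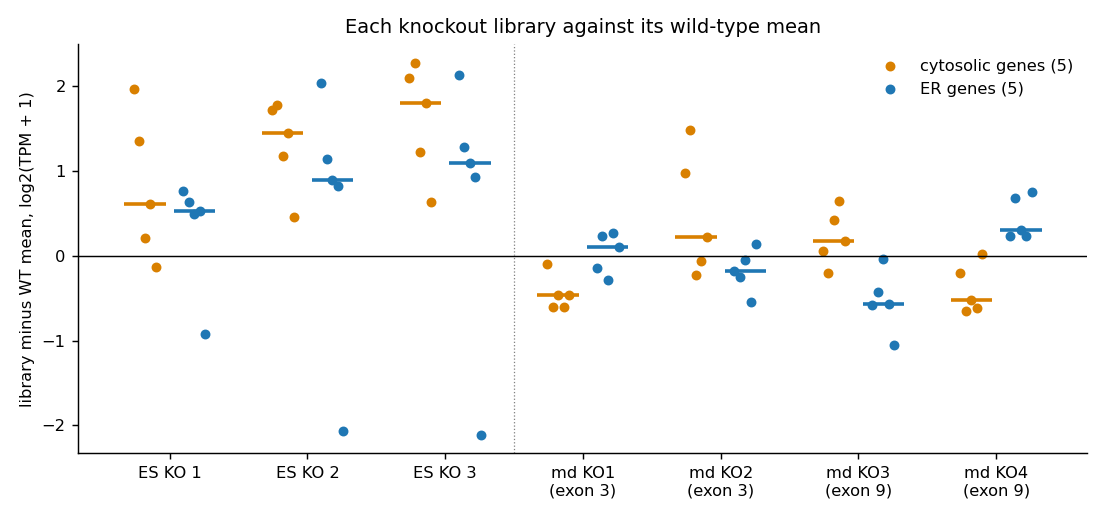
Each KO library minus the WT mean of its cell type, on the log2(TPM + 1) scale, for the 5 cytosolic and the 5 ER genes, with short lines at the medians. In ES libraries both medians are above 0 and Herpud1 is the low ER point, while in md clones KO1 and KO4 the cytosolic median is below 0 and the ER median above it, and in KO2 and KO3 the order is the other way.

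The contrast of exon 9 clones with exon 3 clones reads the md TPM values that chose the members, so for them it is a description. It called none of the 9 members tested (limma, all md libraries in the fit), where 3.73% of the 12090 genes tested were called. Adjusted p-values were 0.329 for Calr, with a log2 difference of 0.30 ± 0.17, and higher for the other 8. At an unadjusted p under 0.05 none of the 9 passed either. The log2 differences depended on single clones. With all clones they were -0.27 for Herpud1, 0.29 for Hspa8, -0.01 for Hspa5 and 0.35 for Hsph1. Without KO4, which leaves KO3 as the lone exon 9 clone, they were -1.17, 0.76, -0.42 and 0.98. That of Hspa1b was -0.86 with all clones and -1.90 without KO1, which leaves KO2 as the lone exon 3 clone. A lone clone gives no spread of its own, so no p is given for these fits.

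Levels of the WT lines are set side by side, since the ES and md tables were normalised separately. In ES WT libraries the order by mean TPM was Hspa8 (3570 ± 643), Calr (265 ± 41.6), Hsp90b1 (152 ± 21.4), Hspa5 (54.3 ± 6.77), Pdia4 (49.6 ± 4.06), Hsph1 (44.4 ± 2.38), Herpud1 (23.8 ± 1.98), Dnajb1 (20.6 ± 0.935), Hspa1b (4.01 ± 1.36) and Hspa1a (0.649 ± 0.288), each as mean ± SD of 3 libraries. Hspa5 and Pdia4 overlapped in their ranges, as did Pdia4 and Hsph1. In md WT libraries the order was Hspa8 (1902 ± 80.5), Calr (893 ± 92.5), Hspa5 (606 ± 21.4), Hsp90b1 (317 ± 17.9), Herpud1 (113 ± 11.7), Pdia4 (73.7 ± 7.83), Hsph1 (55.4 ± 3.12), Dnajb1 (36.1 ± 1.35), Hspa1b (9.08 ± 0.645) and Hspa1a (0.560 ± 0.116). No neighbours in the md order overlapped in their ranges. Hspa5 and Herpud1 thus stood higher in the md order than in the ES order. For Herpud1, transcripts not annotated as coding took 49.8 ± 3.70% of TPM in md WT and 24.7 ± 20.6% in ES WT (SD, n = 3 each). For Calr such transcripts took 48.5 ± 2.14% in md WT and 44.4 ± 5.03% in ES WT. In md WT its coding transcript held 425 to 484 TPM, against 495 to 537 TPM in a single coding transcript of Hspa5. The places of Herpud1 and Calr in the md order therefore depend on how reads were divided among transcripts.

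Transcript values show how gene TPM was made up. Calr TPM was divided between coding transcripts and transcripts not annotated as coding, which took 46.2 ± 1.86% in ES KO and 44.4 ± 5.03% in ES WT (SD, n = 3 each), and 49.5 ± 2.02% in md KO (n = 4) and 48.5 ± 2.14% in md WT (n = 3). For Hspa8 noncoding transcripts took 47.5 ± 2.39% in ES KO and 41.8 ± 1.67% in ES WT, and 60.0 ± 1.44% in md KO and 59.1 ± 1.28% in md WT. A single retained-intron transcript of Hspa8 held 449 to 1168 TPM in md KO and 596 to 671 TPM in md WT, and at most 0.0864 TPM in ES KO and 0 in ES WT. Such shares depend on how the quantifier divided reads. They are part of the contrasts that chose the members and carry no test.

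The response difference between cell types, ES KO minus WT less md KO minus WT, was called in 3.97% of 14463 genes (limma, all 13 RNA-seq libraries in the fit). Hspa1a and Hspa5 were the 2 members among those called. The contrasts that chose the members make up this one, and nothing is read from it for them.

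Beyond the members, 91 other genes of 7 chaperone and stress lists were counted. In ES cells 90 were tested, 4 were called higher and 4 lower in KO (limma), or 8.89% of them against 12.3% of all genes. Among 26 tested cytosolic heat shock genes Dnaja4, a J-domain protein, was called, with a list median of 0.20. Dnaja4 was under 1 TPM in every ES WT library (0.646, 0.804 and 0.536) and passed the filter through the KO libraries alone (1.70, 1.13 and 1.81), so its call is no support and 3 genes called higher remain without it. Of 23 tested ER folding genes 2 were called higher, Pdia6 and Txndc5, both disulfide isomerases, with a list median of 0.09. Pdia6 had 72.6, 89.0 and 110 TPM in ES KO libraries, against 46.3, 50.8 and 50.7 TPM in ES WT libraries (log2 difference 0.85 ± 0.15, adjusted p = 0.0261). Txndc5 had 55.4, 58.5 and 55.6 TPM in ES KO libraries, against 40.0, 42.0 and 39.2 TPM in ES WT libraries (0.47 ± 0.08, adjusted p = 0.0212). Of 9 mitochondrial chaperones Hspd1, the HSP60 of the matrix, was called (0.61 ± 0.13, adjusted p = 0.0363). None of the 8 CCT chaperonin subunits, the 2 heat shock factors Hsf1 and Hsf2, or the 11 ER-associated degradation genes was called in ES cells, with 2, 0 and 5 of them at an unadjusted p under 0.05. Hsp90aa1, the inducible cytosolic HSP90, averaged 3076 ± 93.0 TPM in ES KO and 3059 ± 383 TPM in ES WT, and Hsf1 averaged 25.6 ± 0.793 TPM in ES KO and 22.6 ± 1.01 TPM in ES WT (SD, n = 3 each). Both are named after their values were seen.

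Of the 11 genes of unfolded protein response signalling, 4 were called lower in ES KO and none higher, with a list median of -0.16. Atf4, the factor translated when PERK phosphorylates eIF2alpha, had 63.9, 18.7 and 17.2 TPM in ES KO libraries, against 175, 178 and 139 TPM in ES WT libraries (-2.53 ± 0.46, adjusted p = 0.0269). Trib3, a pseudokinase target of ATF4, had 12.2, 3.12 and 2.52 TPM in ES KO libraries, against 45.4, 44.3 and 24.1 TPM in ES WT libraries (-2.70 ± 0.51, adjusted p = 0.0278). Ppp1r15a, which encodes the phosphatase subunit GADD34, had 22.9, 16.6 and 17.2 TPM in ES KO libraries, against 31.1, 37.4 and 35.3 TPM in ES WT libraries (-0.85 ± 0.14, adjusted p = 0.0232). For all 3 the groups did not overlap. KO library 1 was again nearest to WT, a place that was not counted over all genes. The fourth was Atf6, the membrane-bound sensor, named after its values were seen, with 4.67, 3.67 and 3.54 TPM in ES KO libraries, against 6.68, 7.38 and 5.37 TPM in ES WT libraries (-0.59 ± 0.15, adjusted p = 0.0453). These calls rest on few libraries. Without ES KO library 2 or 3, or without ES WT library 1 or 2, Atf4, Trib3, Ppp1r15a, Pdia6, Txndc5 and Hspd1 each lost its call, with adjusted p-values of 0.0811 to 0.142. Ppp1r15a was also lost with protein-coding transcripts only (-0.59, limma adjusted p = 0.0595) and with the replicate block (adjusted p = 0.0529), Txndc5 with the block (adjusted p = 0.0575), and Hspd1 without a filter on low values (adjusted p = 0.0573). Dnaja4 (0.61 ± 0.15, adjusted p = 0.0431) lost its call without each WT library, with adjusted p-values of 0.0695 to 0.152, and did not pass the filter when a KO library was left out.

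In md cells none of the 87 list genes tested was called (limma), and 4 had an unadjusted p under 0.05. In the difference between cell types Cct3, a subunit of the cytosolic chaperonin, was called with 0.49 ± 0.12 (adjusted p = 0.0411) and Atf6 with -0.77 ± 0.19 (adjusted p = 0.0442). Cct3 had 341, 328 and 334 TPM in ES KO libraries, against 267, 281 and 284 TPM in ES WT libraries, and 470, 570, 494 and 488 TPM in md KO1 to KO4, against 609, 579 and 576 TPM in md WT libraries. Cct3 kept its call in 4 and Atf6 in 3 of the 13 fits that left out 1 library. The highest adjusted p-values were 0.123 for Cct3, without md WT library 1, and 0.127 for Atf6, without ES KO library 2. Both were also lost without ES KO library 3, ES WT library 1 or 2, md KO1 or KO4, and each md WT library. With quantile normalisation Cct3 had an adjusted p of 0.0695 (limma), and with a pseudocount of 0.1 Atf6 had one of 0.0552.

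In the exon 9 clones against the exon 3 clones, 3 of 87 list genes tested were called (limma), or 3.45%, near the 3.73% of all genes. Cryab, a small heat shock protein, had 53.1 and 44.0 TPM in KO3 and KO4, against 223 and 217 TPM in KO1 and KO2 (-2.16 ± 0.14, adjusted p = 0.00156), with md WT libraries at 103, 122 and 118 TPM between them. Dnajb4, a J-domain protein, had 18.4 and 18.4 TPM in KO3 and KO4, against 41.0 and 38.1 TPM in KO1 and KO2 (-1.06 ± 0.12, adjusted p = 0.0137). Cct7 had 305 and 294 TPM in KO3 and KO4, against 171 and 135 TPM in KO1 and KO2 (0.98 ± 0.14, adjusted p = 0.0225). In the values given these 3 genes did not overlap between the exons, though the naming rule did not check overlap for this contrast. Among the members Calr did not overlap either, with 866 and 1106 TPM in KO3 and KO4, against 733 and 856 TPM in KO1 and KO2. The share of all genes without overlap between the exons was not counted, so nothing is read from that separation. With the 4 clones alone in the fit, the adjusted p-values were 0.216, 0.371 and 0.373, and without each md WT library in turn those of Dnajb4 and Cct7 were 0.0566 to 0.0816.

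By a rule of likeness, the genes whose profiles most resembled the mean cytosolic profile were Solh, Abt1, Gtf2h2, Setd1a and Srpk1, with a lower Pearson r over the 7 md and 6 ES libraries of 0.95 to 0.97. Those most like the mean ER profile were Rlf, Dgat2, Serp1, Zfp526 and Cnn2, with 0.92 to 0.97. They were ranked among 10558 genes, and the libraries of a group share its differences, so no p is given. No heat shock gene stood among the first 5, and the second 5 include Serp1, which encodes an ER membrane protein.

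RBM10 crosslinks in md cells give a readout that the choice of genes did not use. Crosslinks numbered 1114788, 2847066, 2845634 and 774816 in RBM10 libraries 1 to 4, against 965090, 2214515, 103017 and 157986 in IgG libraries 1 to 4, so libraries 3 and 4 of IgG limit the precision. The RBM10 libraries were sequenced on one lane and the IgG libraries on another, so that antibody and lane cannot be told apart. Hspa1a had 0 crosslinks in all 8 libraries, which allows up to 3 over each group, and Hspa1b had 6 in RBM10 and 5 in IgG, so both were left untested.

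The position with most RBM10 crosslinks in each of the other 8 members, among positions crosslinked in at least 3 RBM10 libraries, is shown to let the reader see the bases and the place of contact. Each window is 30 bases of mm9, read 5′ to 3′ on the sense strand, with the crosslinked base in capitals.
Hspa8, chr9:40612815-40612844, plus strand: aaagggctgagagggGtcacaatgatgatg
Hsph1, chr5:150422628-150422657, minus strand: gtgagctggtctttcTataatcttcacttg
Dnajb1, chr8:86134379-86134408, plus strand: tggggtgtcagcgggCctggtctggtagac
Hspa5, chr2:34631829-34631858, plus strand: gaggaattggctattTtaaaaattgagaaa
Hsp90b1, chr10:86154836-86154865, minus strand: tagcatggctgacccCccagggtagcacca
Calr, chr8:87368902-87368931, minus strand: atgaggttaggtctcCctttctcaaaggat
Pdia4, chr6:47751153-47751182, minus strand: acagtagcattcataCccttcaggcacttg
Herpud1, chr8:96917614-96917643, plus strand: tgtaagctttggggcCttcagattcttatg

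The crosslinked base was C at 5 of the 8 positions, T at 2 and G at 1. In 5 members the position lay in an intron less than 100 nt before the next 3′ splice site. Those distances were 52 nt in intron 3 of Calr, 65 nt in intron 13 of Hsph1, 67 nt in intron 6 of Herpud1, 79 nt in intron 6 of Pdia4 and 94 nt in intron 2 of Dnajb1. In Hsp90b1 it lay 35 nt after the 5′ splice site of intron 16, with 85 RBM10 crosslinks over 4 libraries and 0 in IgG. The position in Hspa5 was in the 3′ UTR of its last exon, with 22 RBM10 crosslinks and 8 in IgG. In Hspa8 it was the base before the small nucleolar RNA gene Snord14e, chr9:40612831-40612920, with 282 RBM10 crosslinks and 296 in IgG. Calr had 34 crosslinks against 1, Hsph1 19 against 0, Herpud1 12 against 0, Pdia4 5 against 0 and Dnajb1 4 against 0. A second position tied with the one shown in Hsph1 and in Pdia4. As the positions were picked for their RBM10 counts, and the counts are not scaled to library depth, these pairs are a description.

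Over whole gene bodies, edgeR's quasi-likelihood test called Hsph1 higher in RBM10 than in IgG, and called Hspa5 and Calr lower. Among all 9247 genes tested, 19.6% were called higher and 17.4% lower, so 3 calls in 8 members is near the background. CPM values are crosslinks scaled to the library's crosslinks in the tested genes, adjusted by its TMM factor, and not to the library total. Hsph1 averaged 156 ± 32.4 CPM in RBM10 and 93.8 ± 36.2 in IgG (SD, n = 4 each, log2 fold change 0.92, edgeR adjusted p = 0.0120). It lost its call without IgG library 2 (0.67, adjusted p = 0.112). Hspa5 averaged 161 ± 70.1 in RBM10 and 487 ± 90.6 in IgG (-1.56, adjusted p = 0.00163), and Calr 227 ± 51.9 in RBM10 and 422 ± 26.2 in IgG (-0.88, adjusted p = 0.00435). Per library Hspa5 had 187, 248, 104 and 105 CPM in RBM10, against 443, 430, 622 and 453 in IgG, and the groups did not overlap. Hspa8 averaged 794 ± 464 in RBM10 and 1558 ± 549 in IgG (-0.99), and its adjusted p was 0.0502, or 0.00259 with each RBM10 library paired with its IgG library. The adjusted p was 0.822 for Hsp90b1, 0.300 for Pdia4, 0.490 for Dnajb1 and 0.679 for Herpud1.

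The picture differed inside introns. There the same test, on intronic crosslinks alone (chosen after seeing the data), called Hsp90b1, Hsph1, Hspa5 and Calr higher in RBM10 and Hspa8 lower. Of 7921 genes tested on introns 30.3% were called higher and 19.6% lower, and the median log2 fold change of all of them was 0.22. Intron CPM are scaled to the intronic crosslinks of the genes tested on introns, so their level cannot be compared with gene-body CPM. Hsp90b1 introns had 316 ± 130 CPM in RBM10 and 101 ± 29.6 in IgG (1.86, adjusted p = 7.26e-05). In single libraries they had 196, 212, 436 and 421 in RBM10, against 67.0, 88.3, 136 and 111 in IgG. Hsph1 introns had 182 ± 38.7 in RBM10 and 76.4 ± 40.5 in IgG (1.58, adjusted p = 0.000139). Calr introns had 119, 111, 139 and 116 CPM in RBM10, against 41.1, 54.7, 194 and 0 in IgG (1.16, adjusted p = 0.0109). IgG library 3 was above every RBM10 library for Calr, so the groups overlapped. Hspa5 introns had 32.1 ± 9.30 CPM in RBM10 and 11.9 ± 8.39 in IgG, with no overlap and with none in IgG library 4 (1.17, adjusted p = 0.0288). Both genes had the opposite sign over the gene body. Pdia4 (0.73, adjusted p = 0.0818) and Herpud1 (0.81, adjusted p = 0.0985) did not pass, and Dnajb1, with 28 intronic crosslinks in RBM10 and 6 in IgG, was too sparse to test.

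**Figure D4:**
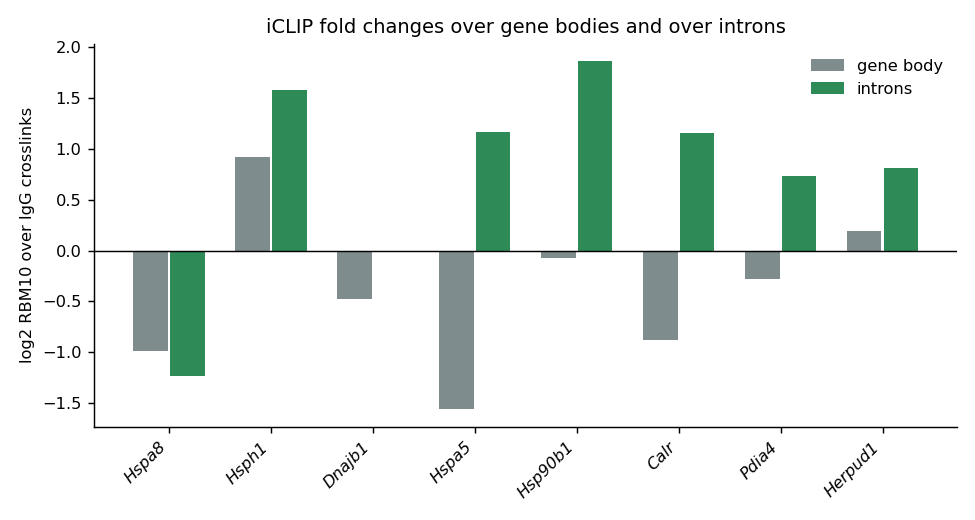
Log2 fold change of RBM10 over IgG crosslinks in md cells for 8 chaperone genes, over gene bodies and over introns alone, from edgeR fits of 4 libraries a group (the fits give no standard error, so no error bars are drawn). Hspa5 and Calr are below 0 over the gene body and above 0 in introns, Hspa8 is below 0 in both, and Dnajb1 was tested over the gene body only.

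Over the members other than Hspa8, 46.4, 39.5, 78.1 and 76.6% of crosslinks were intronic in RBM10 libraries 1 to 4, against 12.3, 12.5, 23.2 and 8.62% in IgG libraries 1 to 4. Every RBM10 library was above every IgG library (exact permutation test over the 8 libraries, 2-sided p = 0.0286, the smallest that 4 against 4 allows, and 0.0349 adjusted over 11 such shares). With each RBM10 library paired with its IgG library, the exact 2-sided p was 0.125, which is the lower limit for 4 pairs. None of the shares passes in that paired test. These share comparisons were chosen after seeing the data. RBM10 libraries 3 and 4 were well above libraries 1 and 2. The share within 100 nt before a 3′ splice site was 25.6 ± 9.00% in RBM10 and 4.51 ± 3.13% in IgG (SD, n = 4 each, exact permutation p = 0.0286). Over all 19444 multi-exon protein-coding genes, 86.9 ± 4.42% of crosslinks were intronic in RBM10 and 74.3 ± 1.17% in IgG. The members minus all genes gave -26.7 ± 15.7 points in RBM10 and -60.2 ± 6.05 points in IgG, with no overlap between the antibodies (exact permutation p = 0.0286, paired p = 0.125). Coding exons held 77.5% of the IgG crosslinks of Hsp90b1 and 23.4% of its RBM10 crosslinks, which was the widest shift of a member. In Hspa5 coding exons held 65.1% in RBM10 and 76.1% in IgG.

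**Figure D5:**
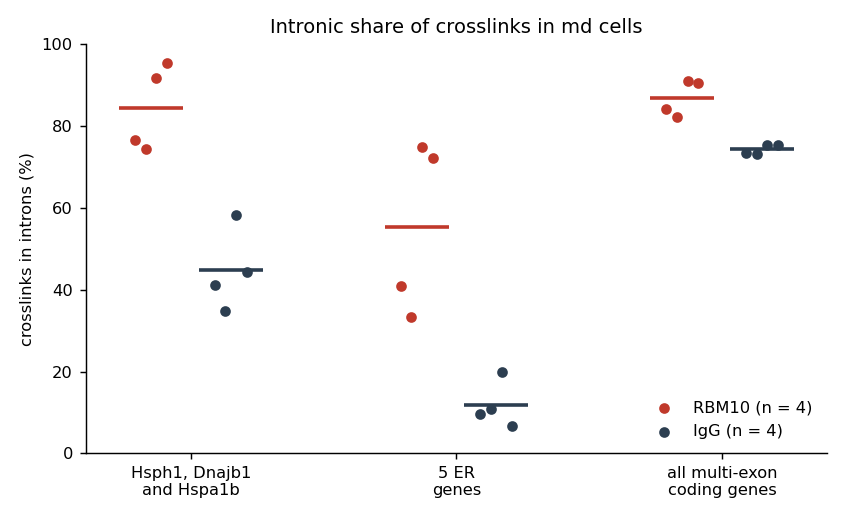
Share of crosslinks in introns in each iCLIP library, for the cytosolic genes other than Hspa8, for the 5 ER genes and for all multi-exon coding genes, with short lines at the means of 4 libraries. The ER genes average 55.3% in RBM10 and 11.8% in IgG, the cytosolic genes 84.5% and 44.7%, and all genes 86.9% and 74.3%.

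Hspa8 stands apart because its introns host Snord14c, Snord14d and Snord14e. These genes, with the base before each, held 79.9% of Hspa8 crosslinks in RBM10 and 95.6% in IgG. By library the share was 70.2 ± 21.0% in RBM10 and 93.1 ± 3.06% in IgG (exact permutation p = 0.0571). Other intronic positions held 27.4 ± 19.9% in RBM10 and 5.34 ± 2.69% in IgG (exact permutation p = 0.0286). The 100 nt before its 3′ splice sites had 714 crosslinks in RBM10 and 34 in IgG. Outside the small nucleolar RNA genes, Hspa8 introns held 1006 crosslinks in RBM10 and 154 in IgG. These counts are not scaled to depth, and each RBM10 library was deeper than the IgG library of its number. By share of the gene's crosslinks, which does not depend on depth, the direction was that of the other members' introns.

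Of the wider lists, 81 genes had enough gene-body crosslinks to test, and 21 were called higher and 12 lower in RBM10 (edgeR), or 40.7% of them. That share is near the background, where 19.6% of all genes were called higher and 17.4% lower, and the values by list are a description. Of 9 mitochondrial chaperones 5 were higher and none lower, with a list median of 0.95 beside 0.03 for all genes. Both heat shock factors were higher, Hsf2 with 66.0 ± 7.89 CPM in RBM10 and 35.0 ± 6.68 in IgG (0.81, adjusted p = 0.0225). In the cytosolic heat shock list 4 of 22 were higher and 2 lower, led by Hsp90aa1 with 105 ± 18.5 in RBM10 and 12.5 ± 10.9 in IgG (2.44, adjusted p = 0.000520). Of 21 ER folding genes 3 were higher and 7 lower. Among the lower were Canx, the membrane-bound relative of calreticulin, with 297 ± 36.6 in RBM10 and 563 ± 34.3 in IgG (-0.91, adjusted p = 0.00198), and Sil1, the exchange factor of BiP, with 71.0 ± 16.8 in RBM10 and 162 ± 15.8 in IgG (-1.17, adjusted p = 0.00198). Creld2 was the highest of the 3 that rose, with 65.8 ± 21.6 in RBM10 and 23.4 ± 7.48 in IgG (1.32, adjusted p = 0.00807). In the signalling list 3 of 9 were higher and 2 lower, with Xbp1, the factor spliced by IRE1, at 94.0 ± 36.4 in RBM10 and 18.8 ± 13.7 in IgG (1.85, adjusted p = 0.00349) and Atf6 at 114 ± 17.7 in RBM10 and 180 ± 27.7 in IgG (-0.69, adjusted p = 0.0128). Syvn1, the ligase that Herpud1 protein binds, was at 102 ± 8.60 in RBM10 and 26.4 ± 18.6 in IgG (1.70, adjusted p = 0.00182).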

How the data were processed

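The authors deposited TPM per transcript for 13 RNA-seq libraries, in 1 table for ES cells and 1 for md cells, and crosslink counts per nucleotide for 8 iCLIP libraries, mapped to mm9 per the series' design text. No quantifier or annotation release is named by the labels or file headers, and the submitters' processing notes name mm9 and mm10 with no role. No count or read depth is known for the TPM values. The crosslink counts may hold repeated molecules, so intervals and floors cover counting error only.

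Transcripts were joined by identifier to GENCODE vM1, which held 84.7% of those listed (85.4 to 91.5% of TPM), and summed to gene TPM. Genes reaching 1 TPM in 3 or more libraries were fitted with limma 3.58.1 on log2(TPM + 1) in R 4.3.3. The ES and the md libraries were fitted apart, and all 13 together for the difference between cell types. Crosslinks over gene bodies were tested with edgeR 4.0.16 (quasi-likelihood, TMM factors). Both used Benjamini-Hochberg adjustment at 0.05. Shares of crosslinks were compared by exact permutation, unpaired and within pairs, a comparison added after seeing the data. The KO against WT fits of md and ES cells and the gene-body edgeR fit were tested on simulated data. The other contrasts and settings were not. DESeq2 1.42.0, other filters, pseudocounts and scalings, and the omission of each library were alternatives. Figures and tables used Python 3.11.15 with pandas 2.3.3, scipy 1.17.1 and matplotlib 3.10.9.

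Besides the 10 members, the text names up to 3 called genes of the wider lists per comparison and direction, those with the lowest p whose groups did not overlap, and the 5 genes most alike per class. Overlap was checked for KO against WT and for RBM10 against IgG, not for the exon contrast or the difference between cell types. The members and lists were chosen with earlier results of these data known. Each iCLIP replicate had its own IgG control per the series' design text, which pairs the libraries. Correlations of paired deviations from the group means were 0.02, 0, -0.02 and 0.02.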

Additional observations from a re-analysis of the deposited data

Results flagged for a closer look

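Among 26 groups of 4 libraries examined for the members, 6 had a library whose gap to its nearest neighbour exceeded Dixon's 95% critical value of the group's range, where chance gives about 1 in 20. In md KO clones, KO2 stood apart for Hspa1a (gap 0.842 of the range, 2.06 TPM) and for Hspa1b (0.890, 27.0 TPM). Reads can be divided arbitrarily between this pair, so the flags of Hspa1a and Hspa1b are not independent. The md TPM values also chose the members, so both flags, and the count of 6 that holds them, are a description. IgG library 3 stood apart for Hspa5 (0.884, 622 CPM) and Herpud1 (0.924, 85.4 CPM), and is the shallowest iCLIP library. IgG library 4 stood apart for Hsp90b1 (0.837, 444 CPM), and RBM10 library 4 for Pdia4 (0.842, 88.2 CPM).

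The KO minus WT difference was not the same in the ES and md lines for 2 list genes by the test of that difference (limma). The ES KO is a single line, so line and genotype cannot be told apart, and both calls were lost in most fits that left out 1 library. For Atf6 the ES difference minus the md difference was -0.77 on the log2 scale, and for Cct3 it was 0.49.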

How the results depend on the processing

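Counts of called genes depended on single libraries. Over fits that left out 1 library, the ES count of 1576 ran from 21 (without WT library 1) to 3985 (without KO library 1), the md count of 2 from 0 to 4, the count for the difference between cell types of 574 from 80 to 1814, the exon 9 against exon 3 count of 451 from 51 to 2228 and the crosslink count of 3414 from 1807 to 4026. The median of cytosolic members in ES cells (1.29) ran from 0.86 to 1.41, and was 0.87 with a pseudocount of 5. Without a filter on low values the ES count was 774 and the md count 6. The md count was 0 with a filter of 5 TPM and 0 with a pseudocount of 0.1, which gave 281 for the difference between cell types. The exon count was 1 with the clones alone. The causes were not tested. Replicate numbers of ES or md libraries pair nothing in the labels (same-number correlations -0.13 to 0.16). With the replicate block the ES count was 422 and the md count 0. With the iCLIP pairs as a block 2630 genes were called, and among the members Hspa8 alone changed its call. With that pairing the intronic share of the members, 46.0 points higher in RBM10, and its gap to all genes, 33.4 points, had an exact p of 0.125. Leaving out 1 library gave 40.0 to 52.9 and 28.8 to 38.7 points, each with an exact permutation p of 0.0571, the smallest that 4 against 3 allows.

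On introns alone (chosen after seeing the data) 6 named genes changed sign against the gene body, Hspa5 to 1.17, Hsp90b1 to 1.86, Calr to 1.16, Pdia4 to 0.73, Canx to 0.02 and P4hb to 0.88. The all-gene median shifted to 0.22 there, to 0.11 with DESeq2 and to 0.13 without TMM factors. Over all settings run, each member kept its sign in ES cells. Among single-gene values under the alternatives, 86 lost a call, 11 gained one, 5 changed sign with a call and 3 moved beyond the replicate spread. IgG libraries 3 and 4 limit the crosslink depth.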
